A study of Mus musculus with 12 samples.

Results

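The collagen prolyl and lysyl hydroxylases are the enzymes that modify collagen chains inside the cell before the chains fold. The 10 genes described here were taken by symbol from the gene list of the count matrices, out of 31053 genes in all. They are the prolyl 4-hydroxylase α subunits P4ha1, P4ha2 and P4ha3, the β subunit P4hb, the prolyl 3-hydroxylases P3h1, P3h2 and P3h3, and the lysyl hydroxylases Plod1, Plod2 and Plod3. All 10 genes had unique molecular identifiers (UMIs, each standing for 1 captured RNA molecule) in every library, and together they held 97373 UMIs, or 0.0527% of all UMIs in the matrices.

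Nuclei from frozen mouse lungs were profiled by droplet single nucleus RNA sequencing to ask how the ECM transcriptome of lung cells responds when the receptor EphB4 is inhibited during lung fibrosis. C57BL/6J mice aged 7 weeks received bleomycin, which damages lung tissue and leads to scarring, or PBS by intratracheal instillation. From day 5 they were given the EphB4 inhibitor NVP-BHG712 or its vehicle by oral gavage, once daily for 5 days, and lungs were taken at 14 days. This gave 4 groups of 3 mice with 1 library each, PBS_Vehicle, PBS_NVP-BHG712, Bleo_Vehicle and Bleo_NVP-BHG712, and no allele was altered in any group. Nuclei were sorted on the DNA dye DAPI, so the levels are those of nuclear RNA. Per the labels, the Bleo_NVP-BHG712 libraries came from a single run, number 4, the PBS libraries from runs 1 to 3, and the Bleo_Vehicle libraries from batches 6 and 7, so run or batch and bleomycin group cannot be told apart.

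The matrices held 49163 barcodes, of which 44611 were kept and 43549 fell in 18 marker-named cell classes, with 3556084 to 61947690 UMIs per library. The 3 Bleo_Vehicle libraries stood apart from the rest, with a median mitochondrial share of 0.668% to 2.56% per library against at most 0.0496% in the other 9, and no pair of libraries shared more than 34 barcodes. Levels of a class or a whole lung are given as CPM, the UMIs of a gene per 1000000 UMIs of the same sum in the same library after the totals were scaled by the TMM factors of edgeR. Levels within fibroblast subclusters, and those of counts summed over the libraries of a group, are CPM of the unscaled totals. Because the libraries count transcript ends, levels were compared between classes and groups for 1 gene at a time and never between genes.

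Hydroxylation of proline by the 4-hydroxylases lets the collagen triple helix hold at body temperature. It is carried out in the endoplasmic reticulum by a complex of catalytic α subunits, encoded by P4ha1, P4ha2 or P4ha3, with the β subunit P4hb, which is also a protein disulfide isomerase. Prolyl 3-hydroxylases modify a small number of prolines, and lysyl hydroxylases make the hydroxylysine that anchors sugars and cross-links. All of these enzymes need oxygen, iron, 2-oxoglutarate and vitamin C, and Plod2, which hydroxylates lysines in the collagen telopeptides, is known for the stable cross-links of scar tissue.

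The promoters of the 3 α subunit genes are shown because these subunits do the same step of catalysis and yet had unlike class patterns and unlike changes between groups, and because P4ha1 and P4ha2 are textbook hypoxia targets. Capitals mark ACGTG on either strand, a form of the core of the hypoxia response element, which also lies inside the E-box CACGTG. The form GCGTG was neither marked nor counted. Each line holds the 250 bases before the RefSeq transcription start (GRCm38.p6), at chr10:59323046-59323295 for P4ha1, chr11:54100674-54100923 for P4ha2 and chr7:100285270-100285519 for P4ha3, all on the plus strand. The RefSeq start of P4ha2 lies inside the gene's span in the other annotation used below.
P4ha1: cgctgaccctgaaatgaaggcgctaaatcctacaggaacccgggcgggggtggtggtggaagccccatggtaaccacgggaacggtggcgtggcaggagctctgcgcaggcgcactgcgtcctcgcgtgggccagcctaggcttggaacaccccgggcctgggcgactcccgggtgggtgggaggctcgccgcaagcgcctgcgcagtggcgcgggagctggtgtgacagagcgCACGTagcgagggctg
P4ha2: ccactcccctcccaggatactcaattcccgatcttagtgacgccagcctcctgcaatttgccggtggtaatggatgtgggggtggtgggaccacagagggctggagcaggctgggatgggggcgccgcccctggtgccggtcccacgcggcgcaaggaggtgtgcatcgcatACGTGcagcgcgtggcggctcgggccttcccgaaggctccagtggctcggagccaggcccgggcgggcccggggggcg
P4ha3: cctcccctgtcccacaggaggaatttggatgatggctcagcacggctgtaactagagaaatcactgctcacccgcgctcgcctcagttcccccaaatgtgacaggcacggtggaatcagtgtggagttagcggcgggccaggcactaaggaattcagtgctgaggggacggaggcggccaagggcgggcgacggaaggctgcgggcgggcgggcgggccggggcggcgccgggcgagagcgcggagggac
In P4ha1 the motif began at position -16 from the start, and in P4ha2 at position -78, with a further copy at position 10, past the stretch shown. Of the 8 members with a RefSeq promoter entry, 5 held the motif within the 300 bases from 250 before the start to 50 after it (P4ha1, P4ha2, P4hb, P3h1 and Plod3), against 19.6% of 32851 promoters. P3h1 had 2 start sites and a match at the second only, so the 5 of 8 counts genes and the 19.6% counts promoters. P4ha3, P3h3 and Plod1 had no match in that window, which says only that these letters are not there.

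Gene spans in the GENCODE annotation of GRCm38 were as follows. P4ha1 (ENSMUSG00000019916) lies at chr10:59323296-59373304, P4ha2 (ENSMUSG00000018906) at chr11:54100095-54131665 and P4ha3 (ENSMUSG00000051048) at chr7:100285520-100319699, all on the plus strand. P4hb (ENSMUSG00000025130) lies at chr11:120560298-120573253 on the minus strand. P3h1 (ENSMUSG00000028641) spans chr4:119232915-119248975 on the plus strand, P3h2 (ENSMUSG00000038168) chr16:25959288-26105784 and P3h3 (ENSMUSG00000023191) chr6:124841089-124857752, both on the minus strand. Plod1 (ENSMUSG00000019055) spans chr4:147909753-147936767 on the minus strand, Plod2 (ENSMUSG00000032374) chr9:92542223-92608428 and Plod3 (ENSMUSG00000004846) chr5:136987019-136996648, both on the plus strand. P3h2 overlaps the same-strand gene AU015336 over 9459 bases, a gene that is not in the matrices, so UMIs from that stretch could belong to either gene.

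Across 16 cell classes with at least 20 nuclei in at least 6 libraries, the 10 genes had different leading classes. Plod2 and P4ha2 were highest in alveolar type I cells, the flat epithelium of gas exchange, P4ha1 in alveolar type II cells, the surfactant-making epithelium, and P4ha3 in fibroblasts. P3h2 led in interstitial macrophages or monocytes, P3h3 in pericytes, the mural cells of capillaries, Plod1 in lymphatic endothelium, P3h1 and P4hb in mesothelial cells, which line the lung surface, and Plod3 in alveolar macrophages. In fibroblasts, the main makers of fibrillar collagen, only P4ha3 of the 10 had its highest level, as a mean over the libraries of all groups.

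**Figure D1:**
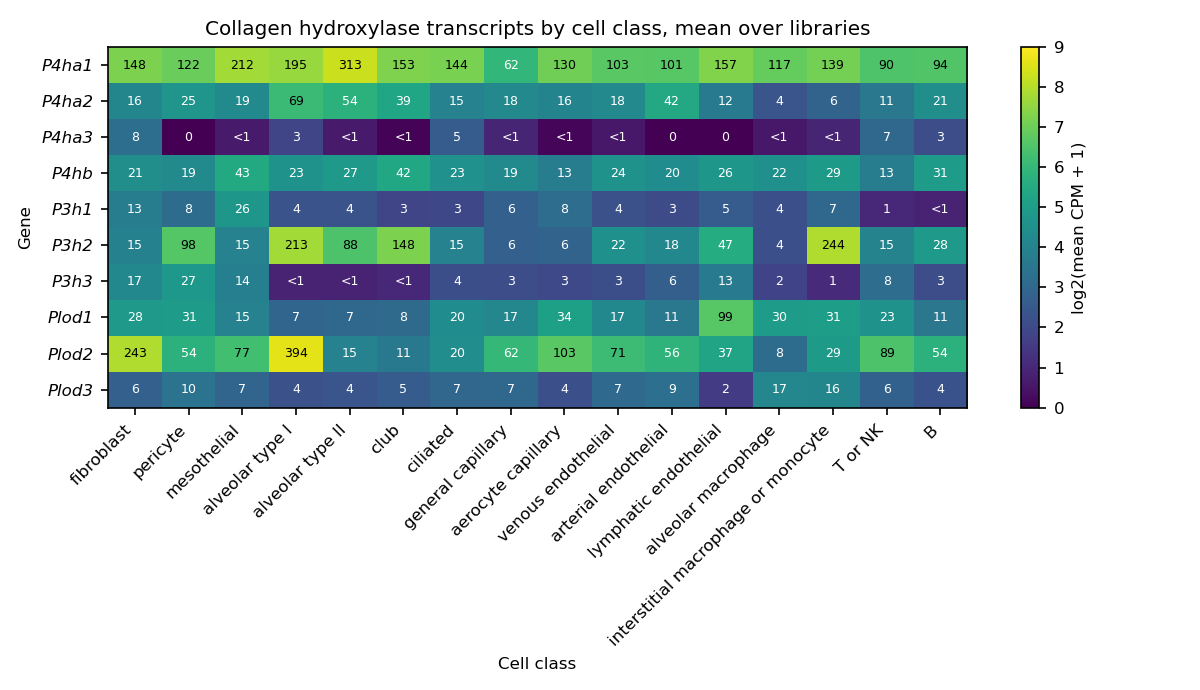
Mean CPM of each hydroxylase gene (rows) in each of 16 cell classes (columns), averaged over libraries, with colour on a log2(CPM + 1) scale and the mean printed in each cell. Plod2 reaches 394 in alveolar type I cells and 243 in fibroblasts, P4ha1 313 in alveolar type II cells, and P4ha3 stays under 10 in every class.

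Among the α subunits, P4ha1 averaged 313 ± 95.8 CPM (SD, n = 12 libraries) in alveolar type II cells, 195 ± 58.7 in alveolar type I cells and 148 ± 65.2 in fibroblasts. Mesothelial cells came second at 212 ± 49.7 (n = 9), and alveolar type II cells were higher in 8 of the 9 libraries with both classes (two-sided exact permutation test with sign flips over libraries, p = 0.0469, adjusted p = 0.439 over 150 neighbour pairs). Its lowest class was the general capillary endothelium, at 61.7 ± 35.7.

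P4ha2 averaged 68.9 ± 14.1 in alveolar type I cells and 54.4 ± 18.3 in alveolar type II cells (higher in 11 of 12 libraries, exact permutation p = 0.0132, adjusted p = 0.260). Fibroblasts held 16.5 ± 4.09 and alveolar macrophages, the lowest class, 4.16 ± 5.81. P4ha3 averaged 8.47 ± 11.8 in fibroblasts, 7.30 ± 17.7 in T or NK cells (n = 8, from 3 UMIs), 5.11 ± 4.53 in ciliated cells, 3.37 ± 8.24 in B cells (n = 6, from 1 UMI) and 2.65 ± 1.84 in alveolar type I cells. Fibroblasts were above T or NK cells in 7 of 8 libraries (exact permutation p = 0.0156, adjusted p = 0.260), and no P4ha3 UMI was seen in arterial endothelium, lymphatic endothelium or pericytes. Of its 471 UMIs in the nuclei kept, 322 (68.4%) came from fibroblast nuclei and 81 (17.2%) from alveolar type I nuclei. By group, the fibroblast mean of P4ha3 was 22.2 in Bleo_Vehicle, 5.33 in PBS_Vehicle and 1.58 in Bleo_NVP-BHG712. In Bleo_NVP-BHG712 alveolar type I cells were higher, at 4.15. In the other groups fibroblasts were above alveolar type I cells. P4hb, the β subunit shared by all α subunits, ranged from 12.8 ± 7.43 in aerocyte capillary cells to 42.8 ± 27.0 in mesothelial cells, with 41.6 ± 16.7 in club cells and 21.0 ± 4.75 in fibroblasts.

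Among the prolyl 3-hydroxylases, P3h1, whose protein works with Crtap and cyclophilin B, averaged 26.3 ± 24.8 in mesothelial cells (n = 9) and 12.9 ± 4.42 in fibroblasts, and 46.4% of its UMIs came from fibroblasts. P3h2, which is known for acting on basement membrane collagen, averaged 244 ± 188 in interstitial macrophages or monocytes (n = 11) and 213 ± 57.9 in alveolar type I cells, against 14.5 ± 5.08 in fibroblasts. The macrophages were higher in 5 of the 11 libraries with both leading classes and alveolar type I cells in the other 6, among them all 3 of Bleo_Vehicle (exact permutation p = 0.521, adjusted p = 0.918). Alveolar type I cells were above club cells, at 148 ± 56.2, in 11 of 12 libraries (exact permutation p = 0.00146, adjusted p = 0.110), and 63.7% of P3h2 UMIs came from alveolar type I nuclei. P3h3, known as a partner of Plod1, averaged 26.5 ± 9.16 in pericytes (n = 8) and 17.5 ± 6.07 in fibroblasts, which held 71.2% of its UMIs.

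Among the lysyl hydroxylases, Plod1 averaged 99.2 ± 51.7 in lymphatic endothelium (n = 7) and was higher there than in aerocyte capillary cells, at 33.7 ± 14.7, in 7 of 7 libraries (exact permutation p = 0.0156, adjusted p = 0.260). Fibroblasts held 28.2 ± 7.99 CPM of Plod1 and alveolar type I cells the least, 6.58 ± 2.60. Plod2 had the opposite place in that epithelium: its level was 394 ± 124 in alveolar type I cells, 243 ± 54.5 in fibroblasts and 103 ± 44.9 in aerocyte capillary cells. The first exceeded the second in 10 of 12 libraries (exact permutation p = 0.00342, adjusted p = 0.171) and the second exceeded the third in 11 of 12 (p = 0.000977, adjusted p = 0.110). Together the first pair of classes held 53.0% and 34.0% of all Plod2 UMIs. Plod3, which can also add glucose to hydroxylysine that carries galactose, averaged 16.9 ± 10.2 in alveolar macrophages and 16.5 ± 12.3 in interstitial macrophages or monocytes.

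No neighbouring pair in these orders passed an adjusted p of 0.05, while 16 of the 150 had an unadjusted p under that value. With 12 libraries the smallest p these permutations can give is 0.000488, and a single pair at that value would have had an adjusted p of 0.0732. P4ha1, P4ha2 and Plod2 kept the same leading class in all 17 settings tried, whereas P4hb kept its leading class in 10 and Plod3 in 9.

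Over the 16 classes the levels of the members followed each other loosely. The highest Pearson r between members was 0.552, for P4ha1 with P3h2, and the lowest was -0.657, for P4ha2 with Plod1. These points share libraries and depth, and the values are a description. Among 11933 genes, the closest pattern to P3h3 was that of Ndrg2 (r = 0.952), then C1qtnf7 (0.932) and Tbx5 (0.923). The closest to P4ha3 were Chst8 (0.868), Gsn (0.857) and Mum1l1 (0.830), and to Plod2 Phactr1 (0.871), Stard13 (0.839) and Ifit2 (0.822). For the other members the closest were Usp33 for P4ha1 (0.836), Pls3 for P4ha2 (0.866), Smyd4 for P4hb (0.864), Evc for P3h1 (0.878), Trib1 for P3h2 (0.801), Arhgef40 for Plod1 (0.799) and Cox7a2l for Plod3 (0.888).

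In fibroblasts of bleomycin-treated lungs, P4ha3 was the member that differed between NVP-BHG712 and vehicle. It fell with the inhibitor to 0.0712 of its mean level with vehicle, whereas the other 9 members, among them the catalytic subunits P4ha1 and P4ha2 and all 3 lysyl hydroxylases, did not pass the test. Bleo_Vehicle against PBS_Vehicle gave no call for any member. Fibroblasts comprised 9946 nuclei, 340 to 2033 per library, with 886096 to 9041963 UMIs per library, and all 10 members passed the filter on low counts.

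P4ha3 read 43.9, 12.6 and 10.1 CPM in Bleo_Vehicle replicates 1, 2 and 3, from 40, 42 and 95 UMIs. In Bleo_NVP-BHG712 it read 2.99, 0.482 and 1.27, from 3, 1 and 2 UMIs. The PBS_Vehicle libraries had 8.60, 4.85 and 2.52, and the PBS_NVP-BHG712 libraries 7.39, 4.00 and 3.01. Every Bleo_Vehicle library was above every other library, and every Bleo_NVP-BHG712 library but the first was below every PBS library.

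The mean was 1.58 ± 1.28 with NVP-BHG712 against 22.2 ± 18.9 with vehicle (SD, n = 3 each), and the groups did not overlap. The fitted log2 change was -3.88 ± 0.82 (SE; 95% interval -5.48 to -2.28), with an adjusted p of 0.0144 by edgeR's quasi-likelihood test with Benjamini-Hochberg adjustment over 10525 genes. In that comparison 7.26% of all genes tested were called, 4.72% as lower, and 1 of 10 members was called. The call was kept in 20 of 22 alternatives, with log2 changes from -7.86 to -3.06, and was lost without Bleo_NVP-BHG712 replicate 2 (adjusted p = 0.0677) or replicate 3 (0.0772). The value of -7.86 came from sums without peribronchial nuclei, where all 3 Bleo_NVP-BHG712 libraries were at 0, so its size depends on the prior count. Without the Bleo_Vehicle library that read 43.9 the change was -3.06 (adjusted p = 0.0138).

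Against PBS_Vehicle, at 5.33 ± 3.07, the Bleo_Vehicle mean of P4ha3 was 4.17 times as high without overlap, with a log2 change of 1.77 ± 0.60 and an adjusted p of 0.118 (edgeR). That comparison called 4.12% of all genes, 3.16% of all genes as higher, and 0 of 10 members, with 1 member and 18.4% of all genes at an unadjusted p under 0.05. P4ha3 passed in 4 of 22 alternatives, and DESeq2 called 0 members. The interaction of NVP-BHG712 with bleomycin was -3.72 ± 1.05 for P4ha3 (adjusted p = 0.148), in a test that called 0.285% of genes. PBS_NVP-BHG712 against PBS_Vehicle called 0 members and 0% of genes, with 0 members at an unadjusted p under 0.05, and Bleo_NVP-BHG712 against PBS_NVP-BHG712 likewise called 0, with 1 member (P4ha3, log2 change -1.95 ± 0.88) at an unadjusted p under 0.05.

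**Figure D2:**
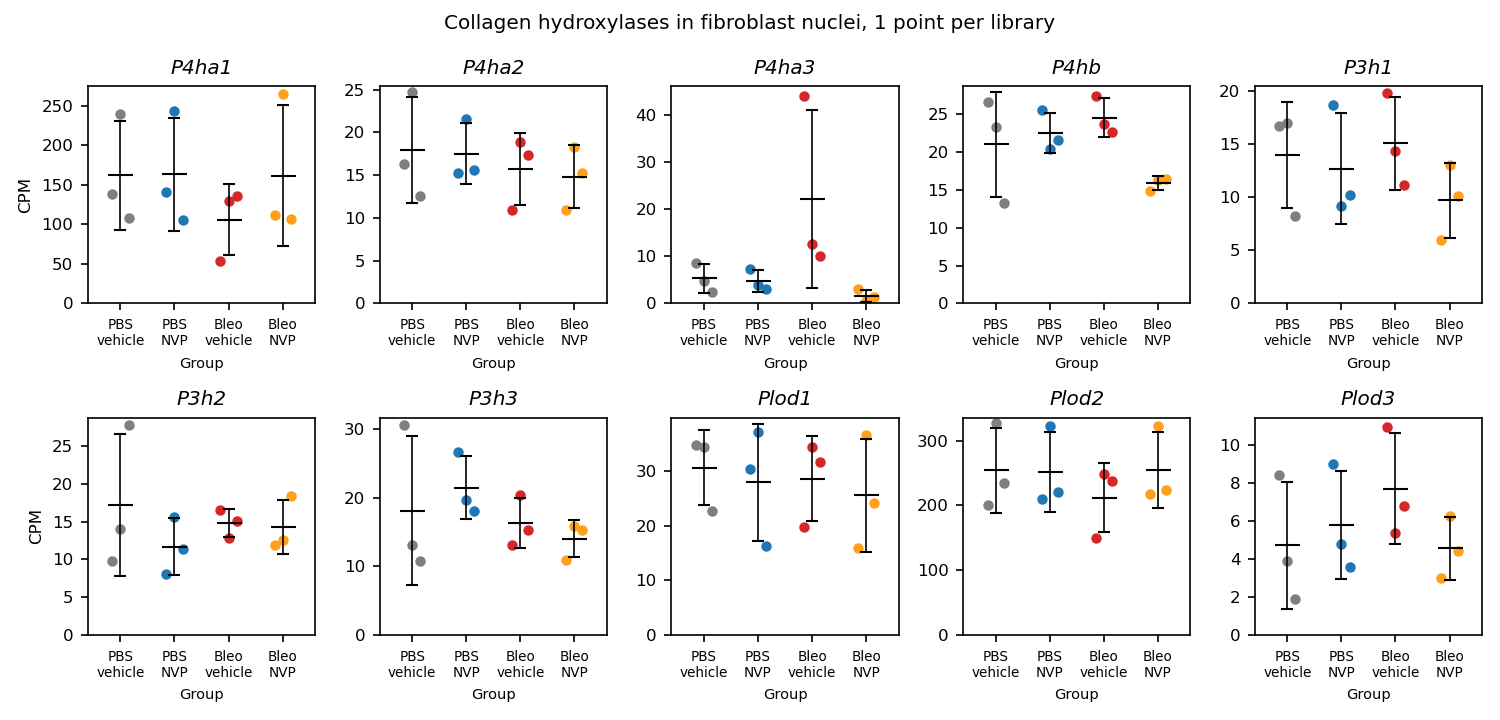
CPM of each of the 10 hydroxylase genes in fibroblasts (vertical axes, each from 0) in the 4 groups, with 1 point per library and a bar at the mean with its SD (n = 3). P4ha3 lies at 10.1 to 43.9 in Bleo_Vehicle and at 0.482 to 2.99 in Bleo_NVP-BHG712, while the points of most other genes overlap between groups.

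Other measures moved with the bleomycin groups in the same fibroblast sums. The summed alveolar type I markers were 413 to 706 CPM in Bleo_Vehicle against 169 to 290.0 in Bleo_NVP-BHG712, and 7 of 12 were called lower with the inhibitor, 5 of 11 alveolar type II markers and 4 of 6 alveolar macrophage markers likewise. Markers of fibrotic fibroblasts summed to 539 to 4805 against 269 to 407 (4 of 8 tested lower), those of peribronchial fibroblasts to 161 to 396 against 229 to 519 (0 of 6 called), and the general fibroblast list to 4216 to 6149 against 8035 to 8836 (2 of 13 higher). Krt5, Chga and Resp18, which define basal and neuroendocrine cells, were at 0. The median mitochondrial share of fibroblast nuclei was 0.495% to 1.41% in Bleo_Vehicle and at most 0.00895% elsewhere. Their part in the result was not tested. Without the 2 fibroblast subclusters led by epithelial or endothelial genes the P4ha3 change was -3.76 ± 0.82 (edgeR adjusted p = 0.0207), in a fit that called 4.85% of genes. For Bleo_Vehicle against PBS_Vehicle the P4ha3 change was then 1.73 ± 0.60 (edgeR adjusted p = 0.144; 3.45% called). Each of these 2 had all 10 leading genes at a far higher level in some other class, where 5 were needed. Peribronchial nuclei reached that limit too, with 5 of 10. They had a name from markers and stayed in this fit, with 61.8% of the fibroblast UMIs of P4ha3.

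When fibroblasts were clustered again without the hydroxylase genes or the collagen lists, 8 subclusters were found, and 3 could be named from markers as adventitial (1577 nuclei), fibrotic (724) and peribronchial (397). Unnamed subcluster 1 (2481 nuclei) had mitochondrial genes among its 10 leading genes and a depth of 0.557 of the library median. It made up 22.5% to 38.3% of fibroblast nuclei in Bleo_Vehicle and 20.1% to 30.9% in Bleo_NVP-BHG712, and it stayed in the fibroblast sums. Peribronchial nuclei, which lie around the airways, were few but held 61.8% of the fibroblast UMIs of P4ha3. The level there was 248 CPM in PBS_Vehicle (54 UMIs, exact Poisson 95% interval 186 to 324), 220 in PBS_NVP-BHG712 (66 UMIs, 170 to 280) and 171 in Bleo_Vehicle (73 UMIs, 134 to 215). In Bleo_NVP-BHG712 it was 62.6 (6 UMIs, 23.0 to 136). These intervals cover counting error only, without the spread between mice.

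By library the peribronchial level of P4ha3 was 274, 244 and 131 in PBS_Vehicle, 245, 131 and 219 in PBS_NVP-BHG712, 197, 219 and 145 in Bleo_Vehicle and 115, 27.6 and 59.4 in Bleo_NVP-BHG712. The last group lay below the other groups in all 3 libraries, from 3, 1 and 2 UMIs. The edgeR test over libraries left out Bleo_NVP-BHG712 replicate 1 (14 nuclei) and PBS_NVP-BHG712 replicate 3 (17 nuclei), which had too few nuclei. The former was the highest of its group, at 115, so the tested group held only 27.6 and 59.4. The log2 change was -2.22 ± 0.70 for Bleo_NVP-BHG712 against Bleo_Vehicle (adjusted p = 0.307). It was -0.19 ± 0.41 for Bleo_Vehicle against PBS_Vehicle (adjusted p = 0.928).

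Among fibroblasts outside peribronchial nuclei, P4ha3 had few UMIs in PBS lungs, 0 in bleomycin lungs with NVP-BHG712, and more in bleomycin lungs with vehicle. Fibrotic nuclei held 0 UMIs in PBS_Vehicle, 1 in PBS_NVP-BHG712, 38 in Bleo_Vehicle (26.2 CPM, 18.6 to 36.0) and 0 in Bleo_NVP-BHG712. All 3 Bleo_Vehicle libraries had it, at 27.2, 13.98 and 31.4 CPM. The 39 fibrotic nuclei of Bleo_NVP-BHG712 allow a level of up to 28.6 CPM (3 counts over the group), so a difference from Bleo_Vehicle within this subcluster was not detectable at this depth. Adventitial nuclei held 5, 6, 20 and 0 UMIs in the same group order, the last allowing up to 4.13 CPM against 9.77 in Bleo_Vehicle.

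Summed over all fibroblasts other than peribronchial nuclei and the 2 subclusters led by other cells' genes, P4ha3 had 17, 13 and 45 UMIs in the Bleo_Vehicle libraries. It had 0 in all 3 Bleo_NVP-BHG712 libraries, 5, 0 and 0 in PBS_Vehicle and 5, 2 and 0 in PBS_NVP-BHG712. Of the 17 in Bleo_Vehicle replicate 1, 7 came from 18 nuclei of the unnamed subcluster 3 (104 CPM), where replicates 2 and 3 had 0 and 1. The summed level was 6.70 CPM in Bleo_Vehicle (5.07 to 26.7 by library) and under 0.645 (3 counts over the group) in Bleo_NVP-BHG712. It was 0.587 and 0.644 in the PBS groups. The summed Bleo_Vehicle level was 10.4 times the limit of 0.645, a ratio without counting error or the spread between mice. This selection of nuclei was made after the data were seen. P4ha3 UMIs also appeared at a low level in other classes of the Bleo_Vehicle lungs, at 3.68, 2.04 and 0.956 CPM in alveolar type II cells and 6.33, 2.18 and 0.284 in general capillary cells. These rest on 8 and 4 UMIs, in sums of 6622296 and 4669856 UMIs. In Bleo_NVP-BHG712 both classes were at 0, in smaller sums of 1107489 and 948572 UMIs, so these counts do not show a drop. The part of free RNA or of misplaced nuclei in the result was not tested. In alveolar type I cells P4ha3 read 2.42, 2.56 and 1.66 in Bleo_Vehicle, from 3, 7 and 20 UMIs. In Bleo_NVP-BHG712 it read 2.63, 6.95 and 2.86, from 3, 11 and 5 UMIs. P4ha3 did not pass the filter on low counts in this class and was not tested there.

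**Figure D3:**
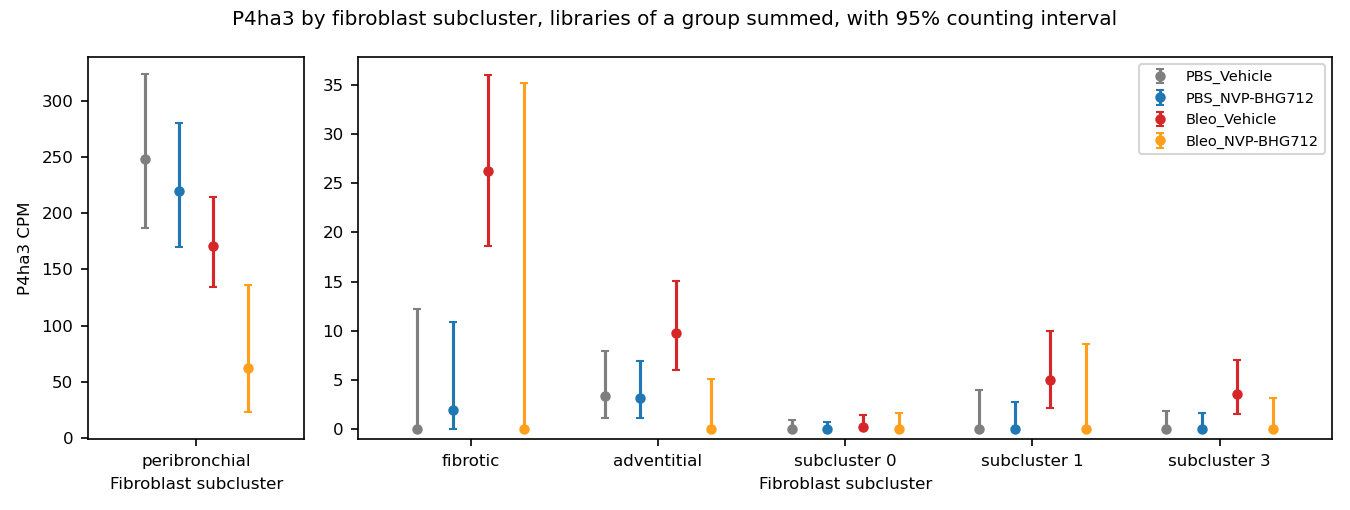
P4ha3 CPM (vertical axes, with different scales in the panels) by fibroblast subcluster and group, with exact Poisson 95% intervals on the summed counts of 3 libraries. Peribronchial nuclei lie at 171 to 248 in 3 groups and at 62.6 in Bleo_NVP-BHG712, and fibrotic nuclei lie at 26.2 in Bleo_Vehicle and at 0 in Bleo_NVP-BHG712, with intervals that overlap.

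The make-up of the fibroblasts differed between groups at the same time. Fibrotic nuclei made up 9.05% to 22.9% of fibroblast nuclei in Bleo_Vehicle, 2.94% to 3.51% in Bleo_NVP-BHG712 and 3.095% to 3.64% in PBS_Vehicle. Peribronchial nuclei made up 2.22% to 6.13%, 4.12% to 5.15% and 4.48% to 5.48% in the same order. Unnamed subcluster 0, with 1 P4ha3 UMI in all, made up 2.17% to 27.6%, 30.3% to 37.4% and 33.6% to 36.2%. The subcluster led by endothelial genes made up 2.36% to 11.1%, 1.17% to 2.65% and 0.238% to 3.14%. The subcluster led by epithelial genes made up 3.099% to 5.93%, 0.432% to 1.64% and 0.952% to 2.69%. How far these shares set the fibroblast level of P4ha3 was not tested.

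In fibroblasts P4hb values also did not overlap between the bleomycin groups, in a comparison where 23.2% of all genes had an unadjusted edgeR p under 0.05. It read 27.5, 23.7 and 22.7 CPM in Bleo_Vehicle and 14.9, 16.4 and 16.5 in Bleo_NVP-BHG712, against 26.6, 23.3 and 13.3 in PBS_Vehicle. The log2 change with NVP-BHG712 was -0.62 ± 0.27 (edgeR adjusted p = 0.177), so it did not pass over all genes. P4hb and P3h1 belong to a list of ECM genes that the study took from other samples, lung fibroblasts of mice lacking Ephb4. P3h1 read 19.8, 14.4 and 11.1 in Bleo_Vehicle and 5.97, 13.01 and 10.2 in Bleo_NVP-BHG712, with a change of -0.52 ± 0.40 (adjusted p = 0.478).

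For the other α subunits, P4ha1 read 53.8, 129 and 136 CPM in Bleo_Vehicle fibroblasts, 113, 265 and 107 in Bleo_NVP-BHG712 and 139, 239.6 and 108 in PBS_Vehicle. P4ha2 read 10.98, 18.9 and 17.4, then 10.95, 18.3 and 15.2, then 16.4, 24.7 and 12.6 in the same order. The groups overlapped for both genes, and in each PBS group and in Bleo_NVP-BHG712 the second replicate was the highest. The log2 change with NVP-BHG712 was 0.55 ± 0.46 for P4ha1 (adjusted p = 0.521) and -0.14 ± 0.31 for P4ha2 (adjusted p = 0.838).

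Among the lysyl hydroxylases in fibroblasts, Plod2 read 150.5, 248 and 238 in Bleo_Vehicle, 217, 323 and 224 in Bleo_NVP-BHG712 and 201, 327 and 234 in PBS_Vehicle. These ranges overlapped, with a log2 change of 0.23 ± 0.25 with NVP-BHG712 (95% interval -0.25 to 0.71, adjusted p = 0.619). Plod1 changed by -0.20 ± 0.33 (adjusted p = 0.773) and Plod3 by -0.60 ± 0.55 (adjusted p = 0.554). For the prolyl 3-hydroxylases P3h2 and P3h3 the values were -0.05 ± 0.39 and -0.25 ± 0.38. The median over the 10 members was -0.22, beside -0.05 over all genes tested, and 9 of the members were called in 0 of 22 alternatives of this comparison.

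Fibroblast subclusters differed in the other hydroxylases too, as a description over summed libraries. P3h2 was concentrated like P4ha3: peribronchial nuclei held 52.6% of its fibroblast UMIs, at 263 CPM (exact Poisson 95% interval 233 to 296), against 3.70 to 9.30 in the other subclusters except the one led by epithelial genes, at 45.5. Plod2 and P4ha1 were lowest in the same peribronchial nuclei, at 110.5 and 89.3 CPM, and Plod1 was too, at 13.4. P4hb was highest in fibrotic nuclei, at 32.5 (25.7 to 40.7). No member passed in any of the 5 subclusters that could be tested, where 1.61% of gene tests passed for Bleo_NVP-BHG712 against Bleo_Vehicle, 1.22% for Bleo_Vehicle against PBS_Vehicle, 0.33% for the interaction and 0% for the other comparisons. The smallest adjusted p of a member there was 0.307, and 1 of 22 member tests for the inhibitor had an unadjusted p under 0.05, beside 13.4% of all gene tests there.

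In alveolar type I cells, the class that held most Plod2 UMIs, Plod2 fell after bleomycin and was higher with NVP-BHG712, at a level near that of PBS lungs. No other member passed the test in these 6290 nuclei, which gave 1159235 to 11756844 UMIs per library. 6 of the 10 members passed the filter on low counts there (Plod2, P3h2, P4ha1, P4ha2, P4hb and Plod1).

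Plod2 read 398, 503 and 525 CPM in PBS_Vehicle, 400.1, 450.5 and 462 in PBS_NVP-BHG712, and 406, 447 and 504 in Bleo_NVP-BHG712. In Bleo_Vehicle it read 123, 207 and 306. All 3 Bleo_Vehicle libraries lay below all 9 others, and the highest of the 3 was the most deeply sequenced, which was also the library of batch 7.

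The Plod2 mean was 212 ± 91.6 in Bleo_Vehicle against 475 ± 67.9 in PBS_Vehicle (SD, n = 3 each), with a log2 change of -1.11 ± 0.24 (adjusted p = 0.0177, edgeR quasi-likelihood test with Benjamini-Hochberg adjustment over 9221 genes). That comparison called 5.78% of genes, 1.88% as lower, and 1 of 6 members. With NVP-BHG712 the mean after bleomycin was 453 ± 49.2, a log2 change of 1.04 ± 0.24 against Bleo_Vehicle (95% interval 0.57 to 1.52, adjusted p = 0.0243), where 5.3% of genes were called, 2.15% as higher, and again 1 of 6 members. The call was kept in 15 of 20 alternatives for NVP-BHG712 (log2 change 0.79 to 1.43) and in 17 of 20 for bleomycin (-1.50 to -0.85). It was lost for the inhibitor without Bleo_Vehicle replicate 2 (adjusted p = 0.0818), without any 1 of the Bleo_NVP-BHG712 replicates (0.0621, 0.0642 and 0.105), and when only the compared groups were fitted (0.0711). For bleomycin it was lost without PBS_Vehicle replicate 3 (0.0599), without Bleo_Vehicle replicate 2 (0.0594) and when only the compared groups were fitted (0.0814).

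The interaction for Plod2 was 1.16 ± 0.34 (adjusted p = 0.159; 0.228% of genes called). PBS_NVP-BHG712 against PBS_Vehicle gave -0.12 ± 0.24 and Bleo_NVP-BHG712 against PBS_NVP-BHG712 gave 0.05 ± 0.24, with 0 members and 0% of genes called in both. A difference in the Plod2 change with NVP-BHG712 between bleomycin and PBS lungs thus did not pass the test.

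Other values of the alveolar type I nuclei moved with the same groups. The summed alveolar type I markers were 15069 to 19496 CPM in Bleo_Vehicle, 21424 to 24362 in PBS_Vehicle and 19810 to 24053 in Bleo_NVP-BHG712, and 0 of 12 were called. Alveolar type II markers summed to 288 to 1013 in Bleo_Vehicle against 195 to 249.8 in Bleo_NVP-BHG712, with 6 of 11 lower with the inhibitor, and 2 of 5 alveolar macrophage markers were lower. The median mitochondrial share was 0.326% to 1.09% in Bleo_Vehicle and at most 0.0258% elsewhere, and median UMIs per nucleus were 1412 to 6260 against 3296 to 5740 in Bleo_NVP-BHG712. Their part in the Plod2 result was not tested.

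**Figure D4:**
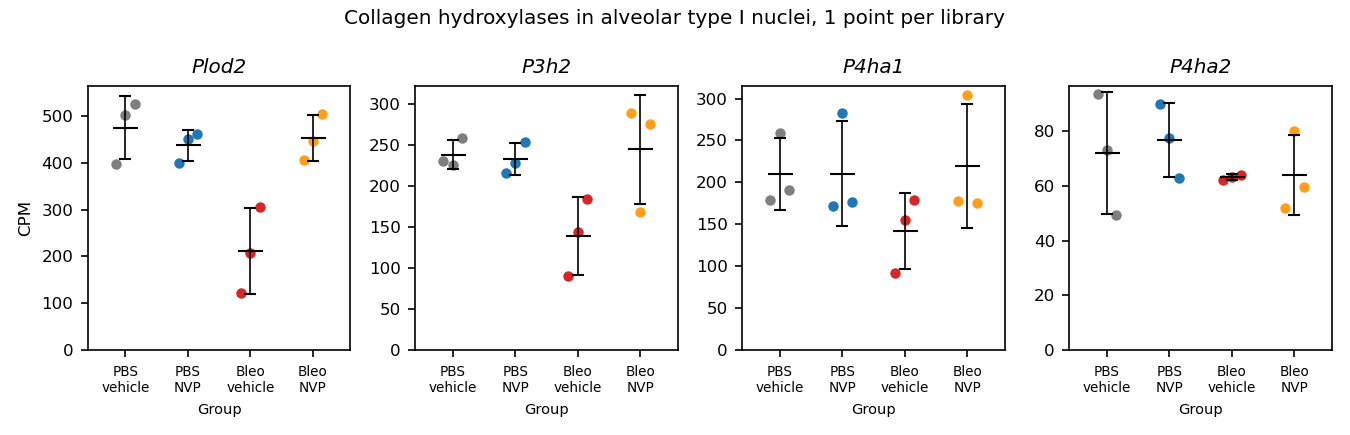
CPM of Plod2, P3h2, P4ha1 and P4ha2 in alveolar type I cells (vertical axes, each from 0) in the 4 groups, with 1 point per library and a bar at the mean with its SD (n = 3). Plod2 lies at 123 to 306 in Bleo_Vehicle and at 398 to 525 in the other groups, and P4ha2 shows no such gap.

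P3h2, whose collagen IV substrate lies in the basement membrane under these cells, had values of the same shape. It read 89.7, 144 and 184 in Bleo_Vehicle, 231, 225 and 258 in PBS_Vehicle and 289, 168 and 276 in Bleo_NVP-BHG712. Bleo_Vehicle did not overlap PBS_Vehicle but did overlap Bleo_NVP-BHG712. The log2 changes were -0.72 ± 0.23 with bleomycin (adjusted p = 0.0869) and 0.75 ± 0.23 with NVP-BHG712 (adjusted p = 0.0750), neither past the threshold. The latter passed in 6 of 20 alternatives, DESeq2 among them (adjusted p = 0.0380), and the former in 3 of 20.

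P4ha1 in alveolar type I cells read 92.1, 155 and 179 in Bleo_Vehicle and 177, 304 and 176 in Bleo_NVP-BHG712, a change of 0.58 ± 0.29 (adjusted p = 0.281). P4ha2 read 62.2, 63.3 and 64.1 against 51.8, 80.2 and 59.6, with overlap (-0.01 ± 0.23, 95% interval -0.46 to 0.44). Plod1, at a low level, read 6.46, 12.4 and 8.72 in Bleo_Vehicle and 3.51, 5.68 and 3.44 in Bleo_NVP-BHG712, without overlap (-1.17 ± 0.41, adjusted p = 0.111). In all, 3 of 6 members had an unadjusted p under 0.05 for the inhibitor, beside 20.5% of all genes, and 2 for bleomycin, beside 19.7%.

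In 9 other classes that could be tested, of which 8 had any member past the filter on low counts, 0 of 26 member tests passed in any comparison, where 3.14% of gene tests passed for Bleo_NVP-BHG712 against Bleo_Vehicle, 2.86% for Bleo_Vehicle against PBS_Vehicle, 0.356% for the interaction and 0% for the other comparisons. At an unadjusted p under 0.05 there were 3 of 26 for the inhibitor, beside 15.99% of all gene tests in these classes, and 1 for bleomycin, beside 14.1%. In general capillary cells Plod2 went the other way from alveolar type I cells. It read 94.99, 79.5 and 64.3 in Bleo_Vehicle, 23.2, 57.6 and 30.6 in Bleo_NVP-BHG712 and 57.3, 74.6 and 74.2 in PBS_Vehicle, with no overlap between the bleomycin groups and a log2 change of -0.98 ± 0.35 (adjusted p = 0.125). Aerocyte capillary cells (-0.88 ± 0.39, adjusted p = 0.367) and venous endothelium (-1.02 ± 0.53, adjusted p = 0.472) had values of the same sign. The difference between these classes and alveolar type I cells was not tested.

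P4ha1 in alveolar type II cells, its leading class, read 122, 189.8 and 336 in Bleo_Vehicle, 331, 468 and 248.9 in PBS_Vehicle and 379, 393 and 296 in Bleo_NVP-BHG712. The ranges overlapped, and neither change passed (-0.57 with bleomycin, adjusted p = 0.319, and 0.59 ± 0.29 with NVP-BHG712, adjusted p = 0.271). Without Bleo_Vehicle replicate 3, the deepest library and the only 1 of batch 7, both did, at -1.05 (adjusted p = 0.00847) and 1.07 (0.00826). The Bleo_Vehicle libraries then left, of batch 6, had the highest median mitochondrial shares, 2.56% and 1.32%, and their part in this was not tested.

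P3h2 in interstitial macrophages or monocytes, its leading class, read 646, 350.4 and 157 in PBS_Vehicle, 382, 293 and 208 in PBS_NVP-BHG712 and 18.0, 66.1 and 166 in Bleo_Vehicle. The groups overlapped by the lowest PBS_Vehicle library. The log2 change with bleomycin was -2.14 ± 0.70 (edgeR adjusted p = 0.283), and the 2 Bleo_NVP-BHG712 libraries with enough nuclei read 366 and 32.2.

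**Figure D5:**
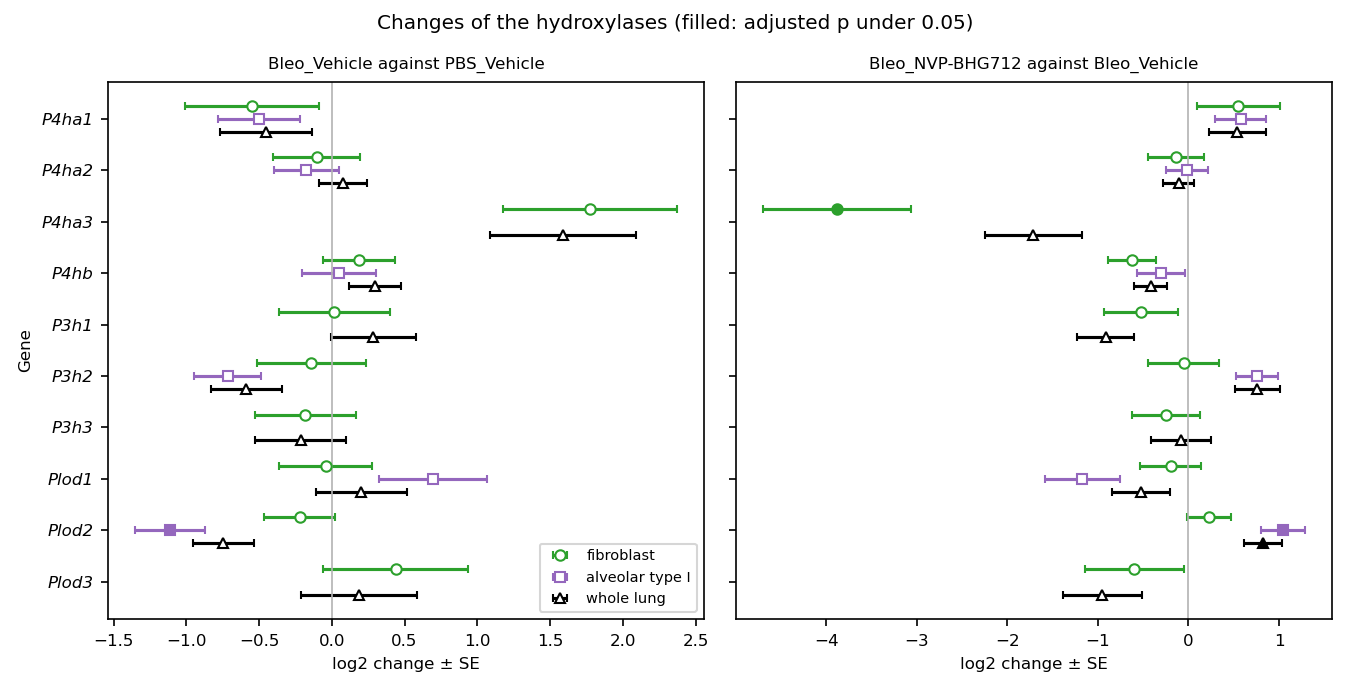
Log2 change with its SE for each hydroxylase gene (vertical axis) in fibroblast, alveolar type I and whole-lung sums, for Bleo_Vehicle against PBS_Vehicle and Bleo_NVP-BHG712 against Bleo_Vehicle, with filled points where the edgeR adjusted p is under 0.05. The filled points are P4ha3 in fibroblasts (-3.88), Plod2 in alveolar type I cells (-1.11 and 1.04) and Plod2 in whole lung (0.82).

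In sums over all nuclei of a lung, Plod2 read 94.4, 143 and 144 CPM in Bleo_Vehicle and 210.0, 222 and 243 in Bleo_NVP-BHG712, against 167, 228 and 252 in PBS_Vehicle and 162, 225 and 239 in PBS_NVP-BHG712. All 3 Bleo_Vehicle libraries were the lowest of the 12. Plod2 was higher with NVP-BHG712, at 225 ± 16.7 against 127 ± 28.2, with a log2 change of 0.82 ± 0.21 (adjusted p = 0.0415, edgeR over 14442 genes), and 1 of 10 members was called where 5.51% of all genes were, 1.96% as higher. The call held in 10 of 19 alternatives. Against PBS_Vehicle the change was -0.74 ± 0.21 (adjusted p = 0.0825; 0 of 10 members and 2.44% of genes called, with 3 members and 18.6% of genes at an unadjusted p under 0.05). In such sums fewer cells of a type and less RNA per cell cannot be told apart, and alveolar type I cells made up 13.6% to 18.3% of nuclei in Bleo_Vehicle and 11.6% to 18.9% in Bleo_NVP-BHG712.

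Of the other members in whole-lung sums, P4ha3 read 12.8, 5.10 and 2.77 in Bleo_Vehicle and 2.06, 1.94 and 1.90 in Bleo_NVP-BHG712 (-1.71 ± 0.53, adjusted p = 0.0762). P3h1 (-0.92 ± 0.31, adjusted p = 0.0972), P4hb (-0.42 ± 0.18, adjusted p = 0.178) and Plod3 (-0.95 ± 0.43, adjusted p = 0.192) were lower in Bleo_NVP-BHG712 without passing, and P3h2 was at 0.76 ± 0.25 (adjusted p = 0.0849). An unadjusted p under 0.05 was reached by 6 of 10 members and by 25.6% of all genes, and 1 member passed over all genes. The median of the 10 was -0.26, beside -0.05 over all genes. The interaction called 0 members and 0.298% of genes, and the other comparisons called 0 members and 0% of genes.

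The genes around these enzymes in the collagen pathway were counted in fibroblasts from lists. Of 22 collagen chains, their substrates, 4 fell with NVP-BHG712 (Col8a1, -2.96 ± 0.82, adjusted p = 0.0420, Col4a3, -2.26 ± 0.50, 0.0210, Col4a4, -1.46 ± 0.39, 0.0395, and Col4a1, -1.41 ± 0.35, 0.0327), with a median of -0.70 over the list and 4.72% of all genes called lower. The alveolar type I markers were lower in the same sums, as given above, and their part in these chains' values was not tested. 3 of these 4 encode chains of collagen IV, the sheet-forming collagen of basement membranes. After bleomycin 2 chains rose, Col8a1 (3.70 ± 0.77, adjusted p = 0.0191) and Col15a1 (2.52 ± 0.65, adjusted p = 0.0464), with a list median of 0.51.

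Of 14 collagen partners (glycosyltransferases, chaperones and the 3-hydroxylation complex) 1 rose with NVP-BHG712, Colgalt2, which adds galactose to hydroxylysine. It averaged 117 ± 27.4 CPM against 29.1 ± 26.2 in Bleo_Vehicle (log2 change 1.80 ± 0.46, adjusted p = 0.0390), and the list median was -0.25. Bleomycin called 0 of the 14. Of 16 hypoxia-response genes tested, 1 rose with NVP-BHG712 and fell after bleomycin, Pfkfb3, a regulator of glycolysis (0.62 ± 0.17, adjusted p = 0.0388, and -0.69 ± 0.17, adjusted p = 0.0311). None of 7 other 2-oxoglutarate-dependent protein hydroxylases, 13 endoplasmic reticulum folding genes and 1 vitamin C transporter tested passed in either comparison, and no list gene passed in the remaining 3 comparisons.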

How the data were processed

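Nuclei from 12 frozen mouse lungs were profiled by 10x 3′ single nucleus RNA sequencing. The deposited matrices hold raw UMI counts per gene and barcode, made by the authors with Cell Ranger (7.2.0 in the file headers, 7.0 in the submitters' processing notes, which also list Seurat 4.4.1 and mm10) and already restricted to cell barcodes. Totals were 3556084 to 61947690 UMIs per library, so counts of single genes such as P4ha3 carry wide counting error.

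Nuclei with 200 to 6000 genes and at most 5% mitochondrial UMIs were kept, and 2708 doublets, called by simulated doublets at a rate of 0.8% per 1000 nuclei, were removed. Clustering (Python 3.11.15, scanpy 1.11.5, igraph 0.11.9) used 2000 variable genes without the 10 hydroxylases, 30 components, Harmony and Leiden at resolution 1, and the fibroblast nuclei were then split further (20 components, resolution 0.4). A cluster was named from at least 3 markers. UMIs were summed per library and class (at least 20 nuclei) and tested with edgeR 4.0.16 (R 4.3.3; TMM, filterByExpr, robust quasi-likelihood test, 4 groups, 5 contrasts, Benjamini-Hochberg adjustment over all genes tested, called under 0.05). Differences between classes were tested on log2(CPM + 1), where CPM are UMIs per 1000000 UMIs of the TMM-scaled sum (unscaled within subclusters and for counts summed over a group), by exact two-sided sign-flip permutation. The study tested single nuclei, whereas here the mouse was the replicate. The study also removed free RNA from the counts with DecontX, a step that was not taken here.

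All 10 members were named whatever their values, with their closest genes by Pearson r and the called genes of 6 lists. Members and lists were chosen with earlier results of these data known. PBS_Vehicle and PBS_NVP-BHG712 libraries of the same number deviated together (r 0.373 to 0.644 in fibroblasts), so numbers paired these libraries, an inference from the data. Other groups shared only a number (r -0.0835 to 0.287). Alternatives were a replicate block, DESeq2 1.42.0, other filters, other clusterings and leaving out each library. The edgeR step was tested on simulated data. Promoters came from RefSeq (GRCm38.p6), with entries for 8 of 10 members, and gene spans from GENCODE (GRCm38).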

Additional observations from a re-analysis of the deposited data

How the results depend on the processing

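For the hydroxylase genes, the number of members called was recomputed under each alternative, and no direction reversed. In fibroblasts Bleo_Vehicle against PBS_Vehicle called 0, and 1 (P4ha3) without a filter on low counts, with the replicate block, or without peribronchial nuclei and the subclusters led by other cells' genes, the last a choice made after seeing the data, in which P4ha3 was at 0 in all 3 Bleo_NVP-BHG712 libraries and in 2 of 3 PBS_Vehicle libraries. The fibroblast interaction called 0, and 1 (P4ha3) without the filter, with the block or with DESeq2. For Bleo_NVP-BHG712 against Bleo_Vehicle the classes other than fibroblasts together called 1, but 4 without the filter, 2 with the block, 0 with only the compared groups, 2 with DESeq2, 3 with doublets kept and 2 without Harmony. For Bleo_Vehicle against PBS_Vehicle they called 1, but 2 without the filter, 2 with the block and 0 with only the compared groups. Their interaction called 0, but 1 without the filter, 1 with the block and 2 with doublets kept. Whole-lung sums called 1 for the inhibitor, but 3 with the block, 0 with only the compared groups, 3 with DESeq2 and 0 under stricter filters on nuclei. They called 0 for bleomycin, but 1 with the block and 2 with DESeq2, and 0 for the interaction, but 1 with the block. Class orders separated 0 neighbours, but 2 when at least 50 nuclei were asked for. The cause of these moves was not tested.

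Leaving out single libraries, the count ranged from 0 to 1 in fibroblasts for the inhibitor, bleomycin and the interaction. In the other classes it ranged from 0 to 3, 0 to 3 and 0 to 1 in that order, and in whole lung from 0 to 4, 0 to 2 and 0 to 0. It was 0 throughout for the subclusters, the class order, PBS_NVP-BHG712 against PBS_Vehicle and Bleo_NVP-BHG712 against PBS_NVP-BHG712. With the replicate block, no member was called between the PBS groups, where the numbers pair the libraries. For the other comparisons the block rests on shared numbers only. In fibroblasts it moved the adjusted p of P4ha3 for bleomycin to 0.00524. Depth limits P4ha3: 6 UMIs stand for all Bleo_NVP-BHG712 fibroblasts.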

Other observations

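The same gene lists gave these counts in alveolar type I cells, where the called genes were named after their values were seen. Of all 9221 genes tested there, 3.16% were lower with NVP-BHG712 after bleomycin and 3.90% were higher in Bleo_Vehicle than in PBS_Vehicle. Of 13 collagen chains tested, 4 were lower with NVP-BHG712 after bleomycin (Col1a1, Col1a2, Col4a2 and Col6a1) and 2 were higher in Bleo_Vehicle than in PBS_Vehicle (Col1a1 and Col1a2, which encode the chains of collagen I). Of 9 collagen partners tested, Colgalt2 was higher and Colgalt1 lower with NVP-BHG712, and Colgalt2 was lower in Bleo_Vehicle than in PBS_Vehicle. Of 11 endoplasmic reticulum folding genes tested, Mttp, the lipid transfer protein that pairs with P4hb, was lower with NVP-BHG712. Of 12 hypoxia-response genes and 7 other protein hydroxylases tested, 0 were called by edgeR in either comparison. In the same sums the general fibroblast markers summed to 372 to 452 CPM in Bleo_Vehicle and 726 to 856 in Bleo_NVP-BHG712 (1 of 7 tested higher and 2 lower with the inhibitor), and those of fibrotic fibroblasts to 433 to 605 and 387 to 504 (1 of 4 lower). The median mitochondrial share was 0.326% to 1.09% in Bleo_Vehicle and at most 0.0258% elsewhere. The part of these in the collagen values was not tested.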
